A study of Mus musculus with 8 samples.

Results

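The RNA of 10 chemokine ligands was followed in Ly-6C-high monocytes of the mouse spleen and blood: Ccl2, Ccl3, Ccl4, Ccl5, Ccl6, Ccl9, Cxcl2, Cxcl9, Cxcl10 and Cxcl16. They were taken by gene name from the array's annotation, with every probe kept, which gave 12 probes for 10 of the 28786 genes named on the array. Ccl5 and Cxcl16 had 2 probes each. Of the 10 genes, 6 entered the test between tissues (Ccl2, Ccl3, Ccl5, Ccl6, Cxcl10 and Cxcl16), as part of the 18266 genes tested. Ccl4 and Ccl9 had fewer than 3 values in spleen, and Cxcl2 and Cxcl9 were too dim. All 10 are described in every sample.

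The spleen group held 4 samples of splenic Ly-6C-high monocytes and the blood group 4 samples of circulating Ly-6C-high monocytes. Both came from one set of 4 female C57BL/6 mice, an inbred laboratory strain, aged 8 to 12 weeks, healthy, fed chow and left untreated. Cells were sorted as high for CD11b and Ly-6C. They were low for the lymphocyte antigens CD90 and B220, the NK cell antigens CD49b and NK1.1 and the neutrophil antigen Ly-6G, and low for F4/80, I-Ab and CD11c, which mark macrophages and dendritic cells. Each sample of 1000 cells gave 5 ng of RNA, which was amplified, labelled with Cy3 and hybridized to a 1-colour array. The series set the splenic monocytes beside their circulating counterparts.

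Chemokines are small secreted proteins that guide leukocytes along gradients by binding G protein-coupled receptors. In the CC family, Ccl2 draws in monocytes through Ccr2, while Ccl3 and Ccl5 act through Ccr1 among other receptors. Monocytes and macrophages transcribe many of these genes at a low level at rest and strongly after microbial or cytokine signals, with NF-kB and interferon-activated factors binding their promoters.

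Promoter sequence is shown for 4 of the ligands because they bear on those 2 signals: Cxcl10 and Ccl3, which had the lowest unadjusted p among the tested ligands, and Cxcl9 and Cxcl2, which share a receptor or an inducer with them. RefSeq's table for GRCm38.p6 held 6 of the 10 ligands (Cxcl2, Cxcl9, Cxcl10, Ccl3, Ccl6 and Ccl9). Each line gives the 250 bases before the start of the gene, 5′ to 3′ on the gene's strand, with motif matches in capitals. The windows were chr5:92348890-92349139 on the minus strand for Cxcl10, chr5:92328080-92328329 on the minus strand for Cxcl9, chr5:90903649-90903898 on the plus strand for Cxcl2 and chr11:83649379-83649628 on the minus strand for Ccl3.
Cxcl10: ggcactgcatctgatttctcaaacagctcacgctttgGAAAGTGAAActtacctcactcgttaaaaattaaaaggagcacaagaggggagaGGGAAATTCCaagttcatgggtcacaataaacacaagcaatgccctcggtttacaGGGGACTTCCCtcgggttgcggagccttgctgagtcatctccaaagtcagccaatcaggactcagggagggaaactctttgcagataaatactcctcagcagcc
Cxcl9: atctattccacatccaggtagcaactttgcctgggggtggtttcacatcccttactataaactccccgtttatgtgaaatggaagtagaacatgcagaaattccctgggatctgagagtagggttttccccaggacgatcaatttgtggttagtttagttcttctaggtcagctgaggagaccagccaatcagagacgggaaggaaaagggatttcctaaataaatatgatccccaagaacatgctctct
Cxcl2: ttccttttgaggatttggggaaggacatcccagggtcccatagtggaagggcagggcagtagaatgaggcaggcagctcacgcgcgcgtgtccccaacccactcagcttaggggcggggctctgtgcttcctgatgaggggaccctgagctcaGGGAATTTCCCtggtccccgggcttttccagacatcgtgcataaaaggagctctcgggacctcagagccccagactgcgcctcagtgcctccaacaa
Ccl3: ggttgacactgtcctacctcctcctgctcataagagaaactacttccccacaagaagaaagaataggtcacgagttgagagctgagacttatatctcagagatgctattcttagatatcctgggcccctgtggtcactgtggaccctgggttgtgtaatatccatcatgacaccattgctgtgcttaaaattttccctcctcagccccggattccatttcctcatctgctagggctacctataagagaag
3 motifs were searched on both strands: the NF-kB consensus, the core of the interferon-stimulated response element (2 copies of GAAA with any 2 bases between), and the core TTCNNNGAA of the gamma-activated site, where N is any base. In Cxcl10 the interferon-stimulated core lay at -213 to -204 from the start. The NF-kB consensus lay there at -159 to -150, and at -104 to -95 and -103 to -94, which overlap. In Cxcl2 it lay at -97 to -88 and -96 to -87, which also overlap. No capital letters stand in the windows of Cxcl9 and Ccl3. Over the 6 windows, 3 held the NF-kB consensus (Cxcl2, Cxcl10 and Ccl9, in the last at -35 to -26), 1 held the interferon-stimulated core and 0 held the gamma-activated core. Of all 32851 promoters in the table, 7.25% held the NF-kB consensus, 2.98% the interferon-stimulated core and 7.02% the gamma-activated core. A match is a description of letters and not of binding.

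All levels are log2 values of the authors' table, in which 6.8 is the level from which probes stood above background. A step of 1 is a doubling. Levels are compared between samples for one probe and never between probes, since probes differ in brightness. For 3 samples (blood 1, blood 2 and blood 3) the deposited scanner file and the table column came from different arrays, with rank correlations between them of 0.842, 0.852 and 0.873. For blood 4 and all 4 spleen samples file and column matched, with correlations that round to 1 and 26520 to 29562 probes well above background. For the 6 tested ligands the difference is therefore given also from the 5 matching columns, which hold 1 blood sample. The untested ligands, the dimmer probes, the other listed genes and the markers have no such value here and rest on the 3 blood columns too. Over all genes the median difference, spleen minus blood, was -0.01, with 8907 genes higher and 9359 lower, and 0% of them (0 of 18266) passed an adjusted p of 0.05 in limma. The 8 samples came from 4 mice, and each p-value weighs a difference only against the spread seen among them.

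None of the 6 tested ligands passed the adjusted threshold, which 0% of all genes did. By sign, 4 were higher in spleen (Ccl3, Ccl5, Cxcl10 and Cxcl16) and 2 lower (Ccl2 and Ccl6), with a median difference of 0.66 against -0.01 over all genes tested. At an unadjusted p under 0.05 there were 2 of 6, Ccl3 and Cxcl10, both higher in spleen, where the share over all genes was 5.43%. Ccl3 passed the filter on dim probes only through spleen, with 4 spleen arrays and 1 blood array at 6.8 or above. The filter thus favoured a higher spleen level for Ccl3, without fixing it. These counts and the median include Ccl3 and are a description only. In 1 of 6, Cxcl10, every spleen value lay above every blood value, which held for 1.88% of all genes. In 0 of 6 every spleen value lay below every blood value, against 1.41% of all genes. Because these are bulk samples, fewer cells that make a transcript and less RNA per cell cannot be told apart.

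**Figure D1:**
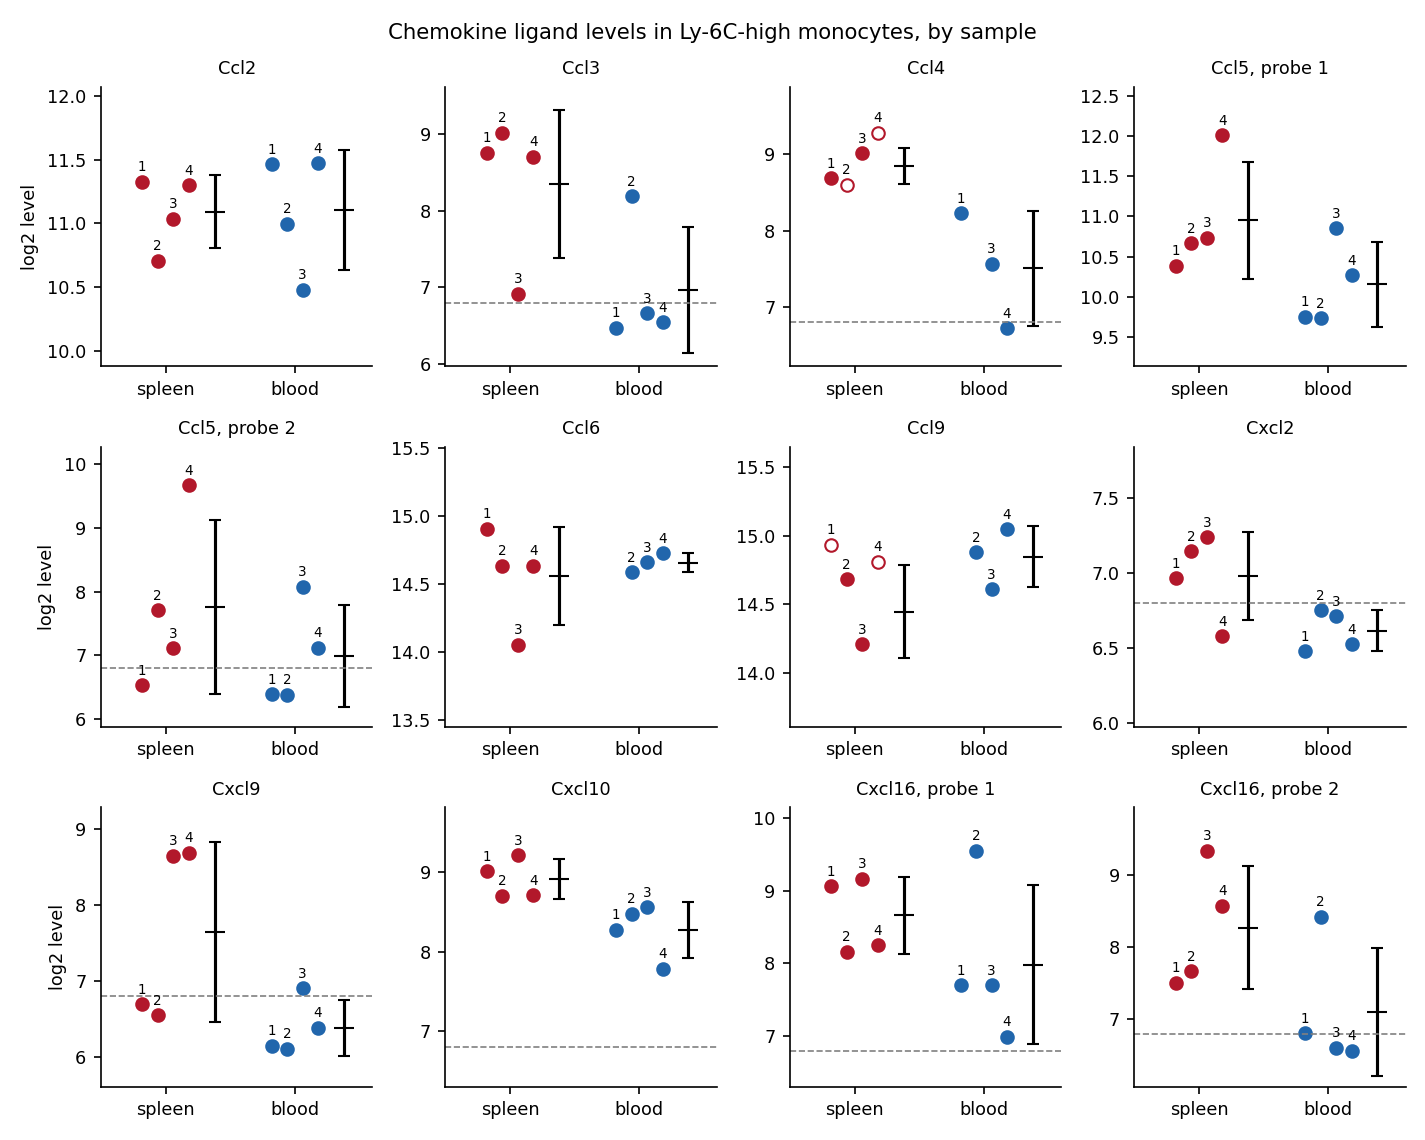
Log2 level of each of the 12 probes in the 4 spleen samples (red, left) and the 4 blood samples (blue, right), numbered by sample. Open circles are cells empty in the table and read from the scanner file of the same array; bars show the mean ± SD of the table's values, and the dashed line marks 6.8. Only Cxcl10 and Ccl4 have all spleen points above all blood points.

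Ccl2, the ligand of the monocyte receptor Ccr2, was well above background in all samples, with almost equal means in both tissues. Its log2 levels were 11.33, 10.71, 11.04 and 11.30 in spleen 1 to 4, and 11.46, 11.00, 10.48 and 11.47 in blood 1 to 4. The groups overlapped fully, with the lowest value in blood 3 and the highest in blood 4. The means were 11.09 ± 0.29 in spleen and 11.10 ± 0.47 in blood (SD, n = 4 each), a difference of -0.01 ± 0.28 (SE), with an adjusted p of 1 in limma. The 95% interval ran from -0.64 to 0.62. Ccl2 was spotted 10 times on each array, and on the 5 matching arrays the SD over these spots was 0.0411 to 0.235 on the log2 scale, smaller than the SD between samples. Its probe lies on chromosome 11 from 82118723 to 82118782 on mm7. The 5 matching columns gave -0.38.

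Ccl3, also called macrophage inflammatory protein 1 alpha, was the tested ligand with the largest difference between tissues. Its levels were 8.75, 9.01, 6.92 and 8.70 in spleen 1 to 4, and 6.47, 8.19, 6.66 and 6.55 in blood 1 to 4. Spleen 3 was the low spleen sample and blood 2 the high blood sample, so the groups overlapped, and 3 of 4 blood values lay below 6.8, which leaves the size of the difference uncertain. The means were 8.35 ± 0.96 in spleen and 6.97 ± 0.82 in blood (SD, n = 4 each). The difference was 1.38 ± 0.53 (SE), or 2.60-fold, with a 95% interval from 0.19 to 2.57. The unadjusted p in limma was 0.0278 and the adjusted p 0.804. Without spleen 3 the difference was 1.86 and without blood 2 it was 1.79, with adjusted p-values of 0.523 and 0.621 in limma. The 5 matching columns gave 1.80, their scanner files 3.41, and spleen 4 minus blood 4, hybridized on the same slide, 2.16. Every blood value behind these last 3, and behind the difference without blood 2, lay below 6.8 in the table, so their sizes are not exact.

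Ccl4, also called macrophage inflammatory protein 1 beta and a close relative of Ccl3, had empty cells in the table and was not tested there. Its levels were 8.68 in spleen 1 and 9.01 in spleen 3, and 8.22, 7.57 and 6.73 in blood 1, blood 3 and blood 4. The scanner files of the same arrays filled the cells of spleen 2 and spleen 4, at 8.60 and 9.28. All 4 spleen values then lay above the 3 blood values, spleen 3 included, which was the low spleen sample for Ccl3. With these cells filled, a choice made after seeing the data, the means were 8.89 ± 0.31 in spleen (SD, n = 4) and 7.51 ± 0.75 in blood (SD, n = 3). The difference was 1.39 ± 0.37 (SE), or 2.62-fold, with a 95% interval from 0.54 to 2.23. Its unadjusted p in limma was 0.00513 and its adjusted p 0.628, over 18464 genes of which 8 passed. Blood 4 lay below 6.8, so the size of the difference is not exact. Blood 2, the high blood sample for Ccl3, had no Ccl4 value, so the separation rests on the other blood samples. On mm7 the Ccl3 probe lies on chromosome 11 from 83717761 to 83717820 and the Ccl4 probe, on the opposite strand, from 83734455 to 83734514.

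Ccl5, or RANTES, which T cells and NK cells also make, stood out in a single spleen sample. On its brighter probe the levels were 10.39, 10.67, 10.74 and 12.02 in spleen 1 to 4, and 9.75, 9.73, 10.85 and 10.27 in blood 1 to 4. Spleen 4 was the highest of the 8, and blood 3 lay above the other 3 spleen samples. On the other probe the levels were 6.53, 7.70, 7.11 and 9.67 in spleen 1 to 4, and 6.39, 6.38, 8.07 and 7.12 in blood 1 to 4. That probe ordered the extremes in the same way, with spleen 4 highest and blood 3 next, and the correlation between the 2 probes was 0.949 over the 8 arrays. The brighter probe averaged 10.95 ± 0.72 in spleen and 10.15 ± 0.53 in blood (SD, n = 4 each), a difference of 0.80 ± 0.40 (SE) with an adjusted p of 0.945 in limma. The other probe differed by 0.76 ± 0.65 (SE). Without spleen 4 the difference on the brighter probe was 0.44, and spleen 4 minus blood 4 on their common slide was 1.74. The 5 matching columns gave 0.68. Its probes lie on chromosome 11 from 83595699 to 83595758 and from 83595850 to 83595905 on mm7.

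T cell and NK cell markers were measured beside Ccl5. The summed log2 level of the T cell markers with all values was 11.08 to 12.26 in spleen and 11.11 to 11.78 in blood, with 6 of 9 markers tested. Of those 6, 4 were higher and 2 lower in spleen, with none past the adjusted threshold in limma. Cd3g, a chain of the T cell receptor complex, was 7.24, 6.88, 6.99 and 8.82 in spleen 1 to 4, highest where Ccl5 was highest, and 6.82 to 7.17 in blood. Cd3e, another chain, was instead highest in spleen 3, at 10.75, against 8.37 in spleen 4. Cd8b1, another T cell marker, had its lowest value of all arrays in spleen 4, at 9.95. Of 8 NK cell markers only 2 passed the filter, and their summed level was 8.21 to 8.36 in spleen and 7.87 to 8.56 in blood. The part of these cells in the Ccl5 values was not tested.

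Ccl6 and Ccl9, chemokines of rodent myeloid cells that bind Ccr1, were far above background in every sample with a value and did not differ by tissue beyond their spread. Ccl6 was 14.90, 14.63, 14.05 and 14.63 in spleen 1 to 4, and 14.59, 14.66 and 14.72 in blood 2, blood 3 and blood 4, with blood 1 empty. The blood values lay inside the spleen range, in which spleen 3 was lowest. The means were 14.56 ± 0.36 in spleen (SD, n = 4) and 14.66 ± 0.07 in blood (SD, n = 3), a difference of -0.10 ± 0.26 (SE) with a 95% interval from -0.69 to 0.49 and an adjusted p of 1 in limma. The 5 matching columns gave -0.17.

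Ccl9 was 14.69 and 14.21 in spleen 2 and spleen 3, and 14.88, 14.61 and 15.05 in blood 2, blood 3 and blood 4. Its cells of spleen 1 and spleen 4 were empty and read 14.94 and 14.81 in the scanner files of those arrays. Spleen 3 was again the lowest of the spleen samples, and the groups overlapped. With the cells filled the difference was -0.19 ± 0.26 (SE), with a 95% interval from -0.78 to 0.40 and an unadjusted p of 0.488 in limma. For both genes the interval excludes a rise or fall of 1 log2 step. The probes lie on chromosome 11 on mm7, that of Ccl9 from 83644626 to 83644685 and that of Ccl6 from 83658400 to 83658459, between those of Ccl5 and Ccl3.

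Cxcl2, a neutrophil attractant that acts through Cxcr2, was near or below background in every sample. Its levels were 6.96, 7.14, 7.24 and 6.58 in spleen 1 to 4, and 6.48, 6.75, 6.71 and 6.53 in blood 1 to 4. All 4 blood values and that of spleen 4 lay below 6.8, and the groups overlapped, with spleen 4 below blood 2 and blood 3. The mean was 6.98 ± 0.29 in spleen and 6.62 ± 0.13 in blood (SD, n = 4 each). With all blood values and that of spleen 4 below 6.8, the size of the difference is not exact. In a fit with no filter on dim probes the difference was 0.36 ± 0.16 (SE), with a 95% interval from -0.01 to 0.73 that includes 0, an unadjusted p of 0.0531 and an adjusted p of 1 in limma.

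Cxcl9 and Cxcl10 encode interferon-inducible ligands of Cxcr3, the receptor of activated T cells and NK cells, and lie next to each other on chromosome 5. Cxcl9 was 6.69, 6.54, 8.65 and 8.69 in spleen 1 to 4, and 6.14, 6.10, 6.90 and 6.38 in blood 1 to 4. Spleen 3 and spleen 4 stood well above the other 6 samples, of which only blood 3 reached 6.8. With 3 of 4 blood values and 2 of 4 spleen values below that level, the size of the difference is not exact. With no filter on dim probes the difference was 1.26 ± 0.56 (SE), with a 95% interval from -0.03 to 2.56, an unadjusted p of 0.0550 and an adjusted p of 1 in limma.

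Cxcl10 was above background in all 8 samples and higher in every spleen sample than in any blood sample. Its levels were 9.01, 8.70, 9.22 and 8.71 in spleen 1 to 4, and 8.28, 8.48, 8.56 and 7.78 in blood 1 to 4. The gap between the lowest spleen and the highest blood sample was small beside the range within each tissue. The means were 8.91 ± 0.25 in spleen and 8.27 ± 0.35 in blood (SD, n = 4 each). The difference was 0.64 ± 0.24 (SE), or 1.55-fold, with a 95% interval from 0.09 to 1.18. The unadjusted p in limma was 0.0267 and the adjusted p 0.801. Cxcl10 and Cxcl9 shared only some of their high samples. Spleen 3 was high for both, at 9.22 for Cxcl10 and 8.65 for Cxcl9. Spleen 1, at 9.01, was above the spleen mean for Cxcl10 but below background for Cxcl9. The 5 matching columns gave 1.13 for Cxcl10, and spleen 4 minus blood 4 on their common slide gave 0.93. On mm7 the probe of Cxcl9 lies from 92310412 to 92310471 and that of Cxcl10 from 92334002 to 92334061.

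Cxcl16, a membrane-bound chemokine that binds Cxcr6 and also takes up oxidized lipoprotein, varied most within blood. On its brighter probe the levels were 9.06, 8.16, 9.17 and 8.25 in spleen 1 to 4, and 7.70, 9.55, 7.70 and 6.99 in blood 1 to 4. Blood 2 was the highest of all 8 samples, while the other 3 blood samples lay below every spleen sample. On the other probe the levels were 7.51, 7.66, 9.33 and 8.57 in spleen 1 to 4, and 6.81, 8.42, 6.61 and 6.57 in blood 1 to 4. Blood 2 was high there too, but spleen 3 was highest, and the correlation between the probes was 0.771 over the 8 arrays. The brighter probe averaged 8.66 ± 0.53 in spleen and 7.98 ± 1.098 in blood (SD, n = 4 each), a difference of 0.68 ± 0.52 (SE) with an adjusted p of 1 in limma. The other probe differed by 1.17 ± 0.52 (SE), with an unadjusted p of 0.0483 and an adjusted p of 0.896 in limma. On that probe blood 3 and blood 4 lay below 6.8, so the size is not exact. Without blood 2 the brighter probe differed by 1.20, without blood 4 by 0.35, and in the 5 matching columns by 1.67. The brighter probe lies on chromosome 11 from 70535852 to 70535911 on mm7, and the files give a span from 70537593 to 70540334 for the other.

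**Figure D2:**
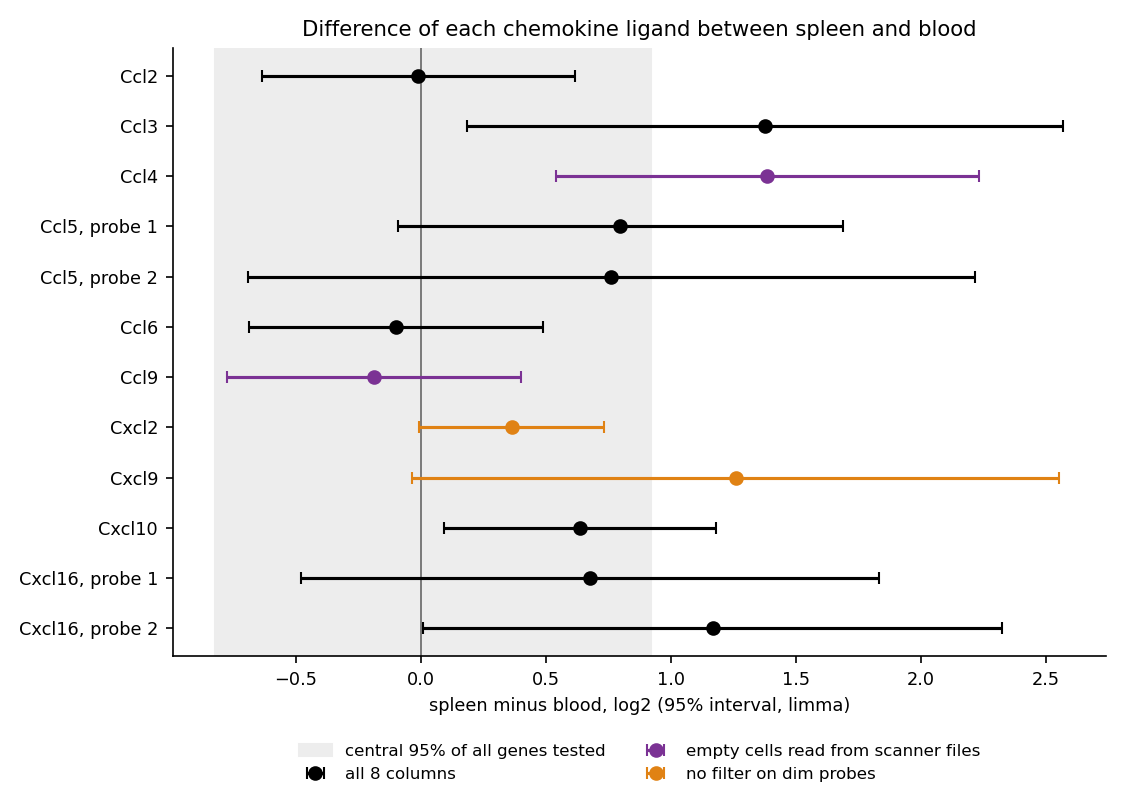
Spleen minus blood on the log2 scale for each probe, with 95% intervals from limma. Black points use all 8 columns of the table, purple points fill empty cells from the scanner files of the same arrays, orange points come from a fit with no filter on dim probes, and the grey band spans the central 95% of all genes tested, from -0.82 to 0.92. The points of Ccl2, Ccl6 and Ccl9 lie at or left of 0. Those of Ccl3, Ccl4, Cxcl9 and the dimmer Cxcl16 probe lie right of the band, but their sizes are not exact. Below 6.8 were 3 of 4 blood values of Ccl3 and Cxcl9, blood 4 for Ccl4, and blood 3 and blood 4 for that Cxcl16 probe.

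Seen by sample, the ligands did not form one block in spleen. Spleen 3 was 1.0 above the probe mean for Ccl4, 1.6 above it for Cxcl9 and 1.6 above it for the dimmer Cxcl16 probe, but 0.7 below it for Ccl3 and 0.5 below it for both Ccl6 and Ccl9. Spleen 4 was 1.5 and 2.3 above the mean for the Ccl5 probes and 1.7 above it for Cxcl9. Blood 2 was 1.2 above the mean for the brighter Cxcl16 probe and 0.5 above it for Ccl3, against 0.8 below it for the brighter Ccl5 probe. The SD within spleen reached from 0.23 for Ccl4 (2 values) to 1.36 for the dimmer Ccl5 probe. Within blood it reached from 0.07 for Ccl6 to 1.098 for the brighter Cxcl16 probe.

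**Figure D3:**
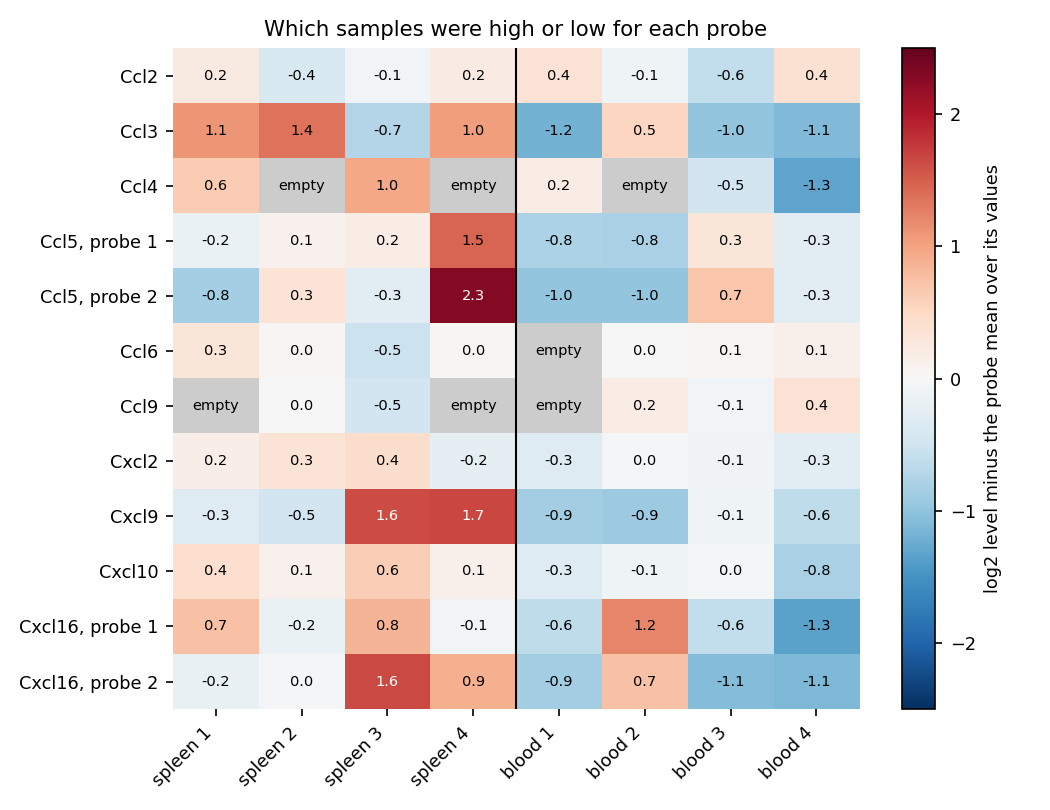
Log2 level of each probe in each sample minus that probe's mean over its values, spleen samples left of the line and blood samples right of it, with red above and blue below the mean. The high values lie in different spleen samples for different ligands, such as 2.3 in spleen 4 for the dimmer Ccl5 probe and 1.4 in spleen 2 for Ccl3.

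The genes whose levels ran most like those of the 3 tested ligands with the largest differences were picked by Pearson correlation over the 8 arrays among 16388 genes with all values. Chosen as the highest of so many, these correlations are a description. Ccl3 ran most like Cgas, the sensor of cytosolic DNA, at 0.964, and D3Ertd254e, at 0.950. For Ccl5 they were Cd82, a tetraspanin, at 0.955 and Med22, a Mediator subunit, at 0.954. For Cxcl16 they were Mocs2, of molybdenum cofactor synthesis, at 0.971 and Gpx3, a secreted glutathione peroxidase, at 0.964.

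Among 27 other chemokine ligands, 26 were on the array and 14 were tested, of which 4 were higher and 10 lower in spleen, with a median of -0.09. None passed the adjusted threshold in limma. The highest were Ccl19, a ligand of Ccr7, which differed by 0.41 ± 0.40 (SE), and Cxcl12, the ligand of Cxcr4, by 0.40 ± 0.52. The lowest were a pair of platelet chemokines, Pf4 and Ppbp. Pf4 was 6.48, 6.74, 7.16 and 6.30 in spleen 1 to 4, and 6.39, 10.64, 10.07 and 10.23 in blood 1 to 4, so 3 blood samples were high and blood 1 was below background like most of the spleen samples. Pf4 reached 6.8 on 4 arrays, blood 2, blood 3, blood 4 and spleen 3, so it passed the filter on dim probes mainly through blood. It differed by -2.66 ± 0.82 (SE, adjusted p = 0.687 in limma), a size that is not exact with 3 of 4 spleen values below 6.8. Ppbp differed by -1.09 ± 0.86. Pf4 and Ppbp are themselves among the 8 platelet markers, of which 1 was higher and 7 were lower in spleen, with a median of -0.65. Of these Gng11, a G protein subunit of platelets, did not overlap between tissues and differed by -1.81 ± 0.32 (SE, adjusted p = 0.184 in limma). It was the 1 of 8 with every spleen value below every blood value, which held for 1.41% of all genes. The summed log2 level of the platelet markers, which includes Pf4 and Ppbp and rests mostly on Itgb3, an integrin chain at 15.98 in spleen and 16.20 in blood, was 15.68 to 16.35 in spleen and 16.10 to 16.44 in blood. The part of platelets in the Pf4 and Ppbp values was not tested.

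All 10 listed receptors and decoy receptors of the ligands were tested, with 5 higher and 5 lower in spleen, a median of -0.11, and none past the adjusted threshold in limma. Cxcr2, the receptor of Cxcl2, was 9.12, 9.70, 10.95 and 10.39 in spleen 1 to 4, and 7.14, 6.74, 8.998 and 6.93 in blood 1 to 4. Every spleen sample lay above every blood sample, and the difference was 2.59 ± 0.55 (SE, adjusted p = 0.362 in limma). Every spleen value lay above every blood value in 1 of the 10 receptors and below in 1, against 1.88% and 1.41% of all genes. Neutrophil markers moved with it: their summed log2 level was 15.40 to 16.77 in spleen and 11.69 to 12.69 in blood, with 9 of 12 markers tested and 8 of those higher. Cxcr3, the receptor of Cxcl9 and Cxcl10, differed by -0.80 ± 0.89 (SE). Ccrl2, an atypical receptor that binds chemerin, differed by 0.25 ± 0.60.

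Neutrophils can also make Ccl3, Ccl4 and Cxcl2, so those markers are set beside the ligands. Their summed log2 level was 15.57, 15.40, 16.77 and 16.08 in spleen 1 to 4, and 12.19, 11.69, 12.54 and 12.69 in blood 1 to 4. Like the means of Ccl3, Ccl4 and Cxcl2, it was higher in spleen. Spleen 3, with the highest neutrophil level, had the highest Cxcl2 value and the lowest Ccl3 value of the spleen samples. The part of neutrophils in the Ccl3, Ccl4 and Cxcl2 values was not tested.

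Of 17 genes of the early NF-kB response, 15 were tested, with 12 higher and 3 lower in spleen, a median of 0.27, and none past the adjusted threshold in limma. Traf1, an adaptor of TNF receptors, was 9.78, 9.98, 9.47 and 9.41 in spleen 1 to 4, and 9.34, 8.38, 7.88 and 8.62 in blood 1 to 4, all spleen samples above all blood samples. It differed by 1.11 ± 0.32 (SE, adjusted p = 0.631 in limma). Tnfaip3, the feedback inhibitor A20, likewise had no overlap and differed by 0.89 ± 0.31 (SE, adjusted p = 0.740 in limma). In these 2 of the 15 every spleen value lay above every blood value, which held for 1.88% of all genes. At the low end were Rela, an NF-kB subunit, at -0.22 ± 0.29, and Nfkb2, another, at -0.06 ± 0.33.

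The 19 genes of the interferon response, all tested, ran the other way by sign: 1 was higher and 18 were lower in spleen, with a median of -0.34 and none past the adjusted threshold in limma. Isg20, an RNA exonuclease, was 9.84, 9.70, 7.83 and 9.001 in spleen 1 to 4, and 11.02, 11.11, 11.24 and 10.18 in blood 1 to 4, with no overlap. It differed by -1.80 ± 0.45 (SE, adjusted p = 0.505 in limma), and Ifit2, an antiviral RNA-binding protein, by -1.18 ± 0.61. In 2 of the 19, Isg20 included, every spleen value lay below every blood value, against 1.41% of all genes. Gbp2, a guanylate-binding GTPase, was the 1 higher, by 0.25 ± 0.36. The interferon-inducible ligands Cxcl9 and Cxcl10 thus had the opposite sign to 18 of these 19 genes, a contrast that was not itself tested.

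Of 6 enzymes that shed or trim chemokines, 5 were tested, with 2 higher and 3 lower in spleen, a median of -0.02 and none past the adjusted threshold in limma. Adam10, the sheddase of Cxcl16, differed by -0.47 ± 0.29 (SE), and Dpp4, which trims Cxcl10, by 0.13 ± 0.50. Mmp9, a gelatinase, was 8.04, 7.27, 9.26 and 9.38 in spleen 1 to 4, and 7.06, 7.33, 7.54 and 6.85 in blood 1 to 4. It differed by 1.30 ± 0.46 (SE, adjusted p = 0.740 in limma), with spleen 2 inside the blood range, and Mmp8, the neutrophil collagenase, by -0.08 ± 0.26.

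The sorted cells carried monocyte markers in both tissues. The summed log2 level of the Ly-6C-high monocyte markers with all values was 14.32 to 14.89 in spleen and 14.45 to 14.79 in blood. Ccr2 and Fn1 had empty cells and were left out of the sum, and differed by -0.41 ± 0.24 and -0.54 ± 0.27 (SE). Of the 7 tested markers 2 were higher and 5 lower in spleen, with a median of -0.16 and none past the adjusted threshold in limma. The summed log2 level of the Ly-6C-low monocyte markers was 13.07 to 13.94 in spleen and 12.89 to 13.02 in blood, higher in every spleen sample. This sum rests mostly on Treml4, at 12.95 in spleen and 11.71 in blood. Of the 6 tested markers 4 were higher and 2 lower in spleen, none past the adjusted threshold in limma. The 2 lower were Cd36, by -0.54, and Cx3cr1, by -0.07. Dendritic cell markers summed to 10.91 to 11.47 in spleen and 10.70 to 11.63 in blood, and B cell markers to 9.29 to 10.53 in spleen and 9.61 to 9.90 in blood. The red pulp macrophage markers summed to 12.87 to 13.12 in spleen and 12.73 to 13.18 in blood. Of the 9 tested, 7 were higher and 2 lower in spleen, with a median of 0.29 and none past the adjusted threshold in limma. In 3 of the 9 every spleen value lay above every blood value, which held for 1.88% of all genes. Vcam1 differed by 2.31, Slc40a1 by 2.17 and Spic by 1.48, with adjusted p-values of 0.144, 0.153 and 0.653 in limma. The blood means of Vcam1 and Slc40a1, 6.63 and 6.78, lay below 6.8, so the sizes of their differences are not exact. Vcam1 reached 6.8 on 5 arrays and passed the filter on dim probes only through spleen. Slc40a1 reached it on 4 arrays, blood 3 and the 3 spleen samples with a value, so it passed mainly through spleen. Their place in the counts is a description only. The 2 lower were Axl, by -0.54 (adjusted p = 0.884 in limma), and Hmox1, by -0.03. The part of any of these cells in the ligand values was not tested.

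**Figure D4:**
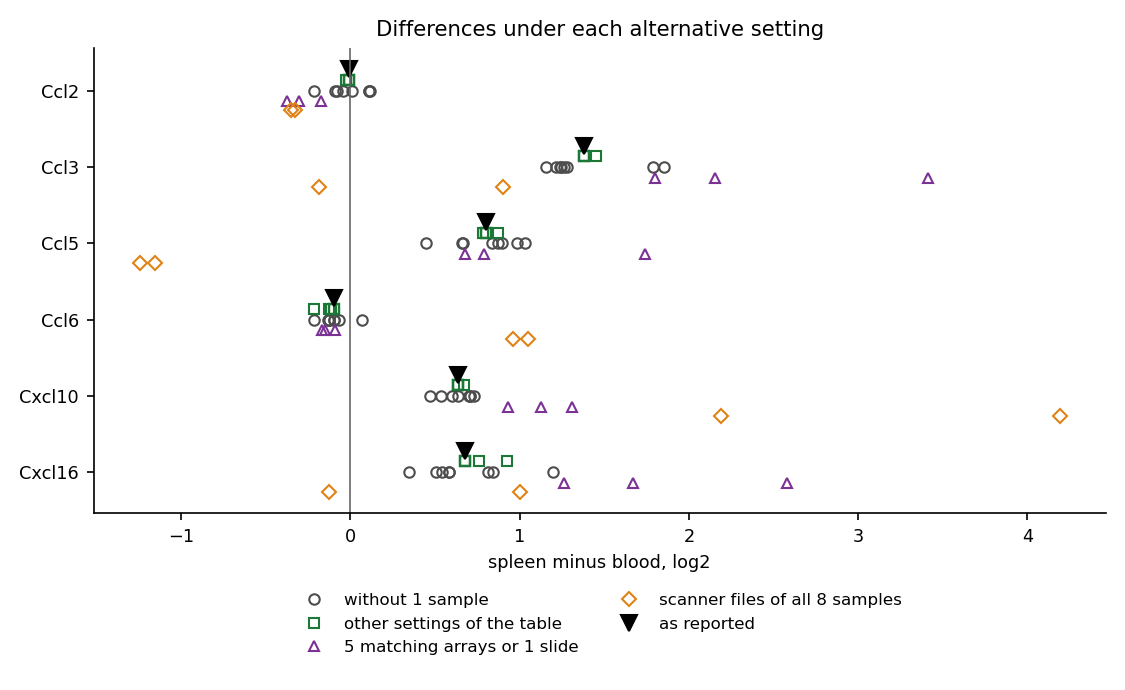
Spleen minus blood on the log2 scale for the 6 tested ligands, as reported (black) and under each other setting of the test. Circles leave out 1 sample, squares change a setting of the table, triangles use the 5 matching arrays or the common slide, and diamonds use the scanner files of all 8 samples, 3 of which hold other arrays than the table. Cxcl10 stays right of 0 throughout, from 0.47 to 4.19, while Ccl3, Ccl5, Ccl6, Cxcl16 and Ccl2 cross 0 in at least 1 setting. For Cxcl10 no setting of the table could cross 0, since all its spleen values there lie above all its blood values.

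In the mismatched scanner files the ligands had levels of their own, given for blood 1, blood 2 and blood 3 in that order on the scale of log2 processed signal minus each array's 75th percentile. Ccl6 was 5.42 to 5.78 in the 5 matching files and 4.71, 4.52 and 3.21 in those 3. Cxcl10 was -1.38 to 0.22 in the matching files and -4.59, -3.74 and -7.33 in the 3. Both ligands were thus lower in each of the 3 files than in any matching file. Ccl4 was -3.79 to 0.27 in the matching files and 4.68, 2.46 and -2.03 in the 3, so it was high in the files of blood 1 and blood 2 only.

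**Figure D5:**
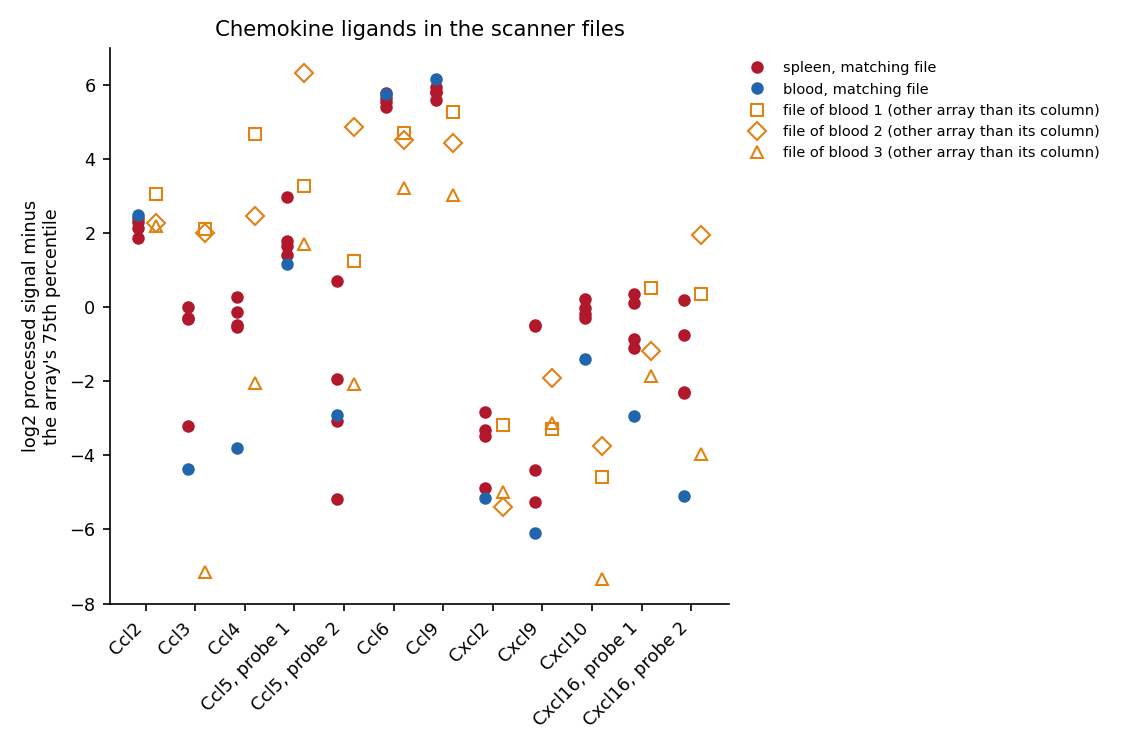
Log2 processed signal minus the array's 75th percentile for each probe in the scanner files: the 4 spleen files (red) and the blood 4 file (blue), which match the table, and the files of blood 1, blood 2 and blood 3 (orange), which hold other arrays than their columns. The orange points lie above the others for Ccl4 in the files of blood 1 and blood 2 (4.68 and 2.46) and below them for Ccl6, Ccl9 and Cxcl10 in all 3.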

How the data were processed

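Scanner files, 1 per sample, hold spot intensity values made by the authors' Agilent Feature Extraction 9.5.1.1 on build mm7, per the file headers. The deposited value table is on a log2 scale, and the submitters' processing notes name limma (no version is given there). On the 5 matching arrays its ranks follow the median spot signal and all columns share a median of 7.31, so it was read as quantile-normalized. That is not stated and narrows differences of dim probes. Both the brightest probe per gene and the filter (6.8 or more on at least 4 of 8 arrays, 3 values per tissue) follow an earlier processing of these data. Spleen minus blood was fitted with limma 3.58.1 in R 4.3.3 (lmFit, eBayes, Benjamini-Hochberg at 0.05), tissue only, 4 against 4, and tested on simulated data. Unpaired fitting was used because no label makes a sample number a mouse. Named genes are the 10 ligands, the 2 highest and 2 lowest tested genes per list, and the 2 genes most correlated with each of 3 ligands. Of these, 2 list genes are not reported here. Members and lists were chosen with earlier results of these data known. Cd3g, Cd3e, Cd8b1, Lcn2, Gng11, Itgb3, Vcam1, Slc40a1, Spic, Axl, Hmox1, Treml4, Cd36, Cx3cr1, Ccr2 and Fn1 were named after their values were seen. Alternatives were other normalizations, filters, blocks, weights, and samples left out. The number of arrays limits the precision. Probe positions are those in the files on mm7, with no exon annotation used here.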

Additional observations from a re-analysis of the deposited data

Results flagged for a closer look

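Within 19 groups of 4 or more values of 1 probe in 1 tissue, 3 held a sample set apart by a gap above Dixon's 95% critical value, where chance marks about 1 group in 20. Ccl3 was 6.92 in spleen 3, below the other 3 spleen samples, and 8.19 in blood 2, above the other 3 blood samples. The dimmer Cxcl16 probe was 8.42 in blood 2, above the other 3 blood samples.

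The mismatched scanner files (blood 1, blood 2 and blood 3), which hold other arrays than the table, were not used in the comparison. In 7 cases their level lay more than 1 log2 step above the highest matching array, on the scale of log2 processed signal minus each array's 75th percentile. In the file of blood 1, Ccl3 was 2.11 and Ccl4 4.68, against at most 0.01 and 0.27 in the matching files. In the file of blood 2, Ccl3 was 1.99 and Ccl4 2.46. There the brighter Ccl5 probe was 6.31 and the dimmer 4.86, against at most 2.98 and 0.72 in the matching files, and the dimmer Cxcl16 probe was 1.96, against at most 0.21. No label or header used here says which cells those arrays held.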

How the results depend on the processing

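The count of tested ligands past the adjusted threshold in limma was 0 in all 21 alternatives with a test. Over all genes the count was 0 as reported, 13 with the sample number as a random replicate block (correlation 0.21), 1 with a fixed replicate block, 1 with probes above background on all 8 arrays, 7 with the mean over probes, 8 with robust variance and an intensity trend, 9 with array weights, 4 with the scanner files at the 75th percentile, 4 with normexp, 8 with empty cells filled from the scanner files (added after seeing the data), and 0 to 3 with 1 sample left out (3 each without spleen 1, spleen 2 or blood 1, and 2 without blood 2). Deviations of same-numbered samples correlated by 0.0929, 0.141, 0.0927 and 0.0903, and those of other numbers by -0.116 to 0.0344. Every sample thus correlated best with its own number. Both tissues came from the same mice, but that a number marks a mouse is a hint from the data only. The reported fit does not take the shared mice into account. The numbers were not taken as pairs because no label says they are and 3 of the 4 correlations were not over the limit of 0.1. The blocks made no ligand pass, and Ccl3 was 1.38 in both.

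The scanner files of all 8 samples hold 3 mismatched ones, and with normexp on them these signs turned: Ccl3 -0.18, Ccl5 -1.25, Ccl6 0.96, Cxcl16 -0.13 and the median of the ligands -0.16. At the 75th percentile Ccl5 was -1.16 and Ccl6 1.05. With 1 sample left out, Ccl2 ranged from -0.22 to 0.12, crossing 0 without spleen 2, spleen 3, blood 1 or blood 4, and Ccl6 from -0.22 to 0.07, above 0 without spleen 3 (0.068). Causes were not tested. Cxcl10 kept its sign in all 22 alternatives, from 0.47 to 4.19, and its lowest adjusted p in limma was 0.212. Alternatives that reuse the table's values could not turn it, since every spleen value there lay above every blood value. Both the 4.19 and the 0.212 came from the scanner files of all 8 samples, 3 of them mismatched. The median difference of the ligands was 0.41 to 0.77 with 1 sample left out. Signals near background limit Cxcl2, Cxcl9, Ccl3, Ccl4 and the dimmer Ccl5 and Cxcl16 probes in blood.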
